A study of Rattus norvegicus and Bos taurus with 12 samples.

Results

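The genes described here bind fatty acids, carry them into the cell and store them as triglyceride. They were chosen by symbol, with 9 named in all: Fabp3, Fabp4, Fabp5, Cd36, Lpl, Plin2, Plin5, Dgat2 and Pnpla2. Of these, 7 were among the 7052 genes listed for adult rat ventricular myocytes (ARVM), and 6 were among the 2115 genes listed for bovine cardiac fibroblasts (Cfib). Both tables together hold 7989 different symbols, and 6 of the 9 genes are in both tables. Plin5 was listed for ARVM only. Fabp4 and Dgat2 were in neither table, so their levels are not analysed here. The tables hold genes that the authors had selected for a difference between the groups compared, so that difference had already chosen the listed members. Their values are given as a description, and no p-value is given for a member.

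RNA sequencing covered 12 libraries, 3 in each of 4 groups. The ARVM were myocytes of healthy adult Sprague Dawley rats, released from the ventricles with collagenase. They were either freshly isolated (libraries con4, con5 and con6) or kept for 7 days in medium conditioned by fibroblasts of calves with pulmonary hypertension (PH-CM, libraries ha2, ha209 and ha211). The Cfib were grown from digested right ventricular biopsies of neonatal calves, used at low passage after a period without serum. The donors were control calves kept at ambient Denver altitude (CO, libraries 1, 2 and 3) or calves that developed pulmonary hypertension under reduced atmospheric pressure (PH, libraries 1, 2 and 3). The paper states that the sequenced fibroblasts came from 3 animals of each group. No altered gene is named for any group. The treatment field of the labels instead speaks of cow serum from low and from high altitude, and the groups are named here after the other labels and the methods. The ARVM contrast holds the time in culture together with the medium, and these cannot be told apart here. Neither the labels nor the values show that each ARVM library is a separate heart, so the spread between libraries may be partly technical.

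Each ARVM value is the number of reads of a gene over the size factor of its library, called a normalized count here. The reads recovered on the listed genes ran from 12122463 to 18842171 per library. For Cfib the deposited signal takes gene length into account (FPKM or TPM, not settled), and its depth is unknown. Levels of different genes can be compared on the Cfib scale but not on the ARVM scale. Changes are given as a log2 fold change of value + 1 from limma, with its standard error (SE), fitted on all listed genes of an experiment.

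A heart muscle cell draws much of its energy from long-chain fatty acids. Lipoprotein lipase (LPL) frees them from circulating triglyceride, CD36 carries them across the cell membrane, and the small fatty acid binding proteins (FABP) carry them through the cytosol. FABP3 is the form typical of heart and skeletal muscle, FABP4 that of adipocytes, and FABP5 is found in many tissues including epidermis and macrophages. DGAT2 adds the last acyl chain of triglyceride, perilipins such as PLIN2 and PLIN5 coat the lipid droplet, and PNPLA2 (adipose triglyceride lipase) begins its breakdown.

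Promoter sequence from RefSeq (rat assembly GRCr8) was found for 5 of the 9 genes, Fabp3, Cd36, Plin2, Plin5 and Pnpla2, with 6 entries in all. The 250 bases before an annotated start are shown for Fabp3, the member with the largest change in both experiments, and for the perilipins Plin5 and Plin2, which had opposite directions in ARVM. All 3 are written 5′ to 3′ on the strand of the gene. Capitals mark matches on either strand to the motifs searched.
Fabp3, chr5:147935875-147936124, plus strand: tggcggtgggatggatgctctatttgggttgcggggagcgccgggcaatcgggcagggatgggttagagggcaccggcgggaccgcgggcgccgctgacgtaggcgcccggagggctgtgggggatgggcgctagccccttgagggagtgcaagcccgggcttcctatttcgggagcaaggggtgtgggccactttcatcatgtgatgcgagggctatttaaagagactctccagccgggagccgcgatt
Plin5, chr9:1033285-1033534, minus strand: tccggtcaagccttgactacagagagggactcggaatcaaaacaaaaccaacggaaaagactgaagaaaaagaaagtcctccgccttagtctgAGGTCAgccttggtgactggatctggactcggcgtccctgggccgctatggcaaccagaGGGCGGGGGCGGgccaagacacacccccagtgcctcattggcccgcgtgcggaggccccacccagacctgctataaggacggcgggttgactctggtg
Plin2, chr5:106229019-106229268, minus strand: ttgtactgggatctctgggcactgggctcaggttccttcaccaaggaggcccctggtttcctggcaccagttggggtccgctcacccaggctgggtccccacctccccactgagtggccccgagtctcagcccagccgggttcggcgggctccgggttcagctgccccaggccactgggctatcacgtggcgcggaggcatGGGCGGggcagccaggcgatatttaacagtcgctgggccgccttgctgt
The motifs were the nuclear receptor element AGGTCA, the direct repeat of AGGTCA with 1 base between the copies, the extended element TCAAGGTCA, the M-CAT element CATTCC, the GC box GGGCGG and the TATA box TATAAA. The element AGGTCA is contained in the direct repeat and in the extended form. Over all 33469 RefSeq windows of this length, 14.1% hold AGGTCA, 0.0508% the direct repeat, 0.388% TCAAGGTCA, 12.1% the M-CAT element, 30.5% the GC box and 12.9% the TATA box. The Fabp3 window holds none of these letters. The Plin5 window holds AGGTCA once, from 157 to 152 bases before the start, and a pair of adjacent GC boxes. The Plin2 window shown holds 1 GC box. These matches are descriptions of the letters in the windows only.

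In ARVM, 5 of the 7 listed members were lower after PH-CM and 2 were higher. The binding protein typical of heart muscle, Fabp3, had an 18.9-fold lower mean, and Lpl a 5.02-fold lower one. Plin5, Cd36 and Pnpla2 were between 2.03-fold and 3.15-fold lower. Fabp5 was 5.56-fold higher and Plin2 1.35-fold higher. All 7 passed the limma threshold (adjusted p under 0.05), as did 97.6% of all listed genes, and in all 7 the groups did not overlap, as in 100% of listed genes. Of all listed genes, 53.9% were called higher and 43.7% lower. The median log2 fold change of the 7 members was −1.25, beside 0.37 over all listed genes.

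**Figure D1:**
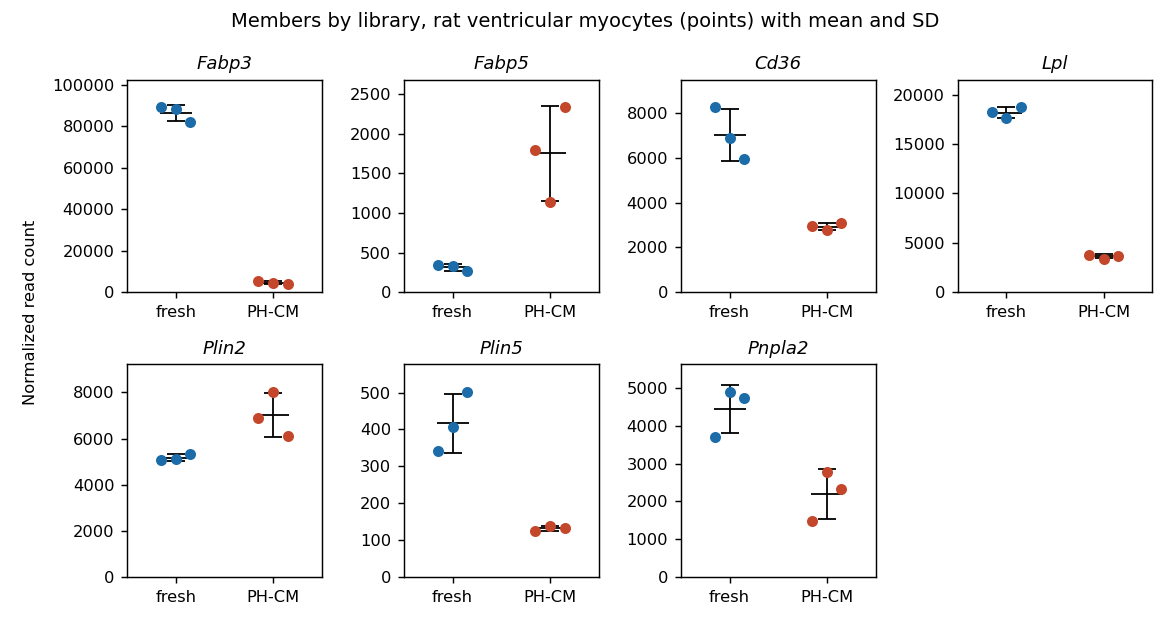
Normalized read counts of the 7 listed members in freshly isolated (blue) and PH-CM (red) ARVM, 1 point per library, with the mean and SD of 3 libraries. Each panel has its own axis from 0; Fabp5 and Plin2 are higher in the PH-CM libraries and the other 5 genes are lower, with no overlap between groups.

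Among the cytosolic carriers, Fabp3 had normalized counts of 89001, 88199 and 81986 in freshly isolated ARVM con4, con5 and con6. In PH-CM ARVM ha2, ha209 and ha211 it had 5197, 4605 and 3934. The libraries of each group lay close together, and the lowest freshly isolated library stood far above the highest PH-CM library. The mean was 86396 ± 3839 (SD, n = 3) before and 4579 ± 632 after PH-CM, and the log2 fold change was −4.25 (SE 0.10). It ranked 54 among the falls of all listed genes. Fabp5 had normalized counts of 342, 336 and 268 in freshly isolated ARVM. In PH-CM ARVM ha2, ha209 and ha211 it had 1792, 1137 and 2332. The PH-CM libraries were all higher but spread widely, with a coefficient of variation of 34.1% against 13.1% in freshly isolated ARVM. The log2 fold change was 2.42 (SE 0.24), and it stayed between 2.18 and 2.70 when any 1 library was omitted. Pseudogenes of Fabp5 are annotated in the rat, and reads shared with them could not be separated.

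Within each library, the normalized count of Fabp3 was 260, 262 and 306 times that of Fabp5 in freshly isolated ARVM. In PH-CM ARVM ha2, ha209 and ha211 it was 2.90, 4.05 and 1.69 times that of Fabp5. This ratio does not depend on the size factor of a library, but it is not corrected for gene length.

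The uptake genes were both lower after PH-CM. Lpl had normalized counts of 18209, 17659 and 18713 in freshly isolated ARVM con4, con5 and con6 and of 3798, 3413 and 3663 in PH-CM ARVM ha2, ha209 and ha211. It varied little between libraries, with coefficients of variation of 2.90% and 5.39%, and its log2 fold change was −2.33 (SE 0.06). Cd36 had normalized counts of 8261, 6895 and 5947 in freshly isolated ARVM and of 2952, 2775 and 3086 in PH-CM ARVM. Here the freshly isolated libraries spread more than the PH-CM libraries (coefficients of variation 16.5% and 5.30%), and the log2 fold change was −1.25 (SE 0.11). RefSeq (GRCr8) also places the related genes Cd36l1 and Cd36-ps1 beside Cd36, and reads shared among them could be split by the authors' counting.

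The droplet coat proteins had opposite directions. Plin5, which is found mainly in oxidative tissues and binds Pnpla2 and Abhd5, had normalized counts of 340, 407 and 501 in freshly isolated ARVM. In PH-CM ARVM ha2, ha209 and ha211 it had 125, 139 and 132. The PH-CM libraries were nearly equal, and all lay below the lowest freshly isolated library (log2 fold change −1.63, SE 0.18). Between 156 and 485 reads per library stood behind these values, and 156 was the lowest read number of a member in any library. Plin2, the widely expressed coat protein, had normalized counts of 5067, 5121 and 5338 in freshly isolated ARVM and of 6892, 8012 and 6109 in PH-CM ARVM. This was the smallest difference of the members, 5175 ± 143 (SD, n = 3) against 7004 ± 956, with a log2 fold change of 0.43 (SE 0.10). Without PH-CM ARVM ha209 it was 0.33. The ratio of Plin5 to Plin2 within a library was 0.0671, 0.0795 and 0.0939 in freshly isolated ARVM and 0.0181, 0.0173 and 0.0216 in PH-CM ARVM. It is not corrected for gene length either.

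Pnpla2, the triglyceride lipase, had normalized counts of 3711, 4889 and 4721 in freshly isolated ARVM. In PH-CM ARVM ha2, ha209 and ha211 it had 1469, 2784 and 2316. All PH-CM libraries were lower, with the lowest value in library ha2 and a coefficient of variation of 30.4%. The log2 fold change was −1.06 (SE 0.22), and it was −0.80 without PH-CM ARVM ha2. On the recovered reads, edgeR gave log2 fold changes from −4.26 for Fabp3 to 2.46 for Fabp5, and the 7 members kept their directions with edgeR and DESeq2.

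Markers of other cell types moved with the ARVM groups. Their calls stand beside 97.6% of all listed genes called, 53.9% higher and 43.7% lower. All 11 listed of 12 cardiomyocyte markers were called lower, and their summed normalized count ran from 1428565 to 1489981 in freshly isolated and from 106200 to 127751 in PH-CM ARVM. Fabp3 amounted to 5.74% to 5.97% of that sum in freshly isolated and to 3.70% to 4.07% in PH-CM ARVM. Such sums and shares are not corrected for gene length. The log2 fold changes of the 11 markers ran from −6.62 (Mb, myoglobin) to −0.47, and that of Fabp3 (−4.25) lay within this range. All 10 fibroblast markers were called higher, with sums from 1896 to 2580 in freshly isolated and from 83260 to 124450 in PH-CM ARVM. All 10 listed of 11 macrophage markers were called higher, with sums from 253 to 362 and from 7878 to 11662. Of these, Lyz2 (lysozyme) had the highest mean count, and it went from 40.8 ± 14.3 (SD, n = 3) to 6237 ± 1358 normalized counts. C1qc and Aif1 were at 0 in 2 of the 3 freshly isolated libraries. Of 10 endothelial markers, 9 were called lower and 1 higher, with sums from 11105 to 13045 and from 4587 to 5360. Of 9 adipocyte markers, 4 were listed and called higher, with sums from 356 to 469 and from 640 to 705. Lipe, with means of 397 ± 65.9 (SD, n = 3) and 576 ± 22.4, made up most of these sums. Cfd, named after its value was seen, passed by limma (adjusted p = 0.0232) but not with DESeq2 (0.0866). By limma Cfd also did not pass without freshly isolated ARVM con5 (0.0522) or without PH-CM ARVM ha211 (0.0675). The other 3 markers (Plin1, Cidec and Lipe) also belong to the lists of fatty acid handling genes. Adipoq and Lep, which define adipocytes, were not listed. Endothelial cells, macrophages and adipocytes also express Cd36, Fabp5 or Lpl, and the part of these cells in the members' values was not tested. In these bulk samples, fewer cells of a type and less RNA per cell cannot be told apart.

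Of 90 other genes of fatty acid handling, 39 were listed for ARVM. All 39 passed the limma threshold, 17 higher and 22 lower. This again stands beside 97.6% of all listed genes called, 53.9% higher and 43.7% lower. Their median log2 fold change was −0.60, and their median absolute log2 fold change was 1.29, beside 0.96 over all listed genes. No other member of the FABP family was listed of 7 in the list. Apart from Dgat1, the genes of these lists named below passed with adjusted p between 1.05e-07 (G0s2) and 0.00342 (Pnpla3) from limma. All were selected by the authors on the same contrast.

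Of 7 acyl-CoA binding genes, 3 were listed and called lower, as were 43.7% of all listed genes. Dbi, the main cytosolic acyl-CoA binding protein, fell from 17854 ± 793 (SD, n = 3) to 8036 ± 1350 normalized counts. Scp2 (log2 fold change −1.19) and Acbd6 (−0.60) fell as well. Among 13 genes of fatty acid transport and activation, 8 were listed, 5 higher and 3 lower. The fatty acyl-CoA synthetase Acsl6 fell from 449 ± 7.67 (SD, n = 3) to 53.3 ± 16.3. Acsl3, a synthetase found at the endoplasmic reticulum and on lipid droplets, rose from 175 ± 38.1 to 661 ± 42.4. Slc27a3, of the fatty acid transport protein family, rose from 19.2 ± 6.68 to 183 ± 43.7.

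Among 15 genes of lipoprotein lipolysis and uptake, 6 were listed, 5 higher and 1 lower. The receptor Lrp1 rose from 223 ± 59.1 (SD, n = 3) to 3357 ± 379 normalized counts, Scarb1 had a log2 fold change of 1.70 and the apolipoprotein Apoe one of 1.58. Of 15 genes of triglyceride synthesis, 8 were listed, 3 higher and 5 lower. The phosphatidate phosphatase Lpin3 rose from 119 ± 17.2 (SD, n = 3) to 792 ± 40.3, Agpat4 had a log2 fold change of 1.57 and Agpat5 one of −1.12. Dgat1, which catalyzes the same last step as Dgat2 and is named after its value was seen, changed by −0.36 on the log2 scale (SE 0.12), with an adjusted p of 0.0175 from limma. It did not pass without freshly isolated ARVM con5 (adjusted p = 0.0597).

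Of 12 genes of the droplet coat and droplet growth, 5 were listed, 2 higher and 3 lower. Fitm1, a droplet-forming protein of muscle, fell from 1398 ± 94.5 (SD, n = 3) to 358 ± 22.6 normalized counts. Cidec rose from 13.2 ± 3.50 to 45.3 ± 12.1. Plin1, the coat protein of adipocytes, had values of 0, 4.28 and 0 in freshly isolated ARVM and of 24.2, 24.2 and 9.31 in PH-CM ARVM. At such low values its log2 fold change of 3.42 depends on the pseudocount, and it ran from 1.33 to 5.65 over the alternatives.

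Lipolysis held the largest opposite changes of these lists, with 2 of 4 listed genes higher and 2 lower of 10 in the list. G0s2, an inhibitor of Pnpla2, had normalized counts of 187, 217 and 155 in freshly isolated ARVM and of 4103, 3942 and 4114 in PH-CM ARVM. The groups lay far apart, and its log2 fold change was 4.45 (SE 0.12). Abhd5, the coactivator of Pnpla2, fell from 678 ± 19.9 (SD, n = 3) to 321 ± 41.0 normalized counts (log2 fold change −1.08). Pnpla3, a relative of Pnpla2, had 154, 146 and 106 in freshly isolated ARVM and 18.1, 11.2 and 0 in PH-CM ARVM. Of 11 nuclear receptors and coactivators that respond to or act with fatty acids, 5 were listed. All 5 were called lower, as were 43.7% of all listed genes. Pparg had normalized counts of 199, 181 and 131 in freshly isolated ARVM and of 16.6, 77.6 and 26.2 in PH-CM ARVM ha2, ha209 and ha211. Its PH-CM libraries spread widely, and its log2 fold change was −2.33 (SE 0.52), −2.95 without ha209 and −1.87 without ha2. Rxrg had a log2 fold change of −1.44 and Rxrb one of −1.29.

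**Figure D2:**
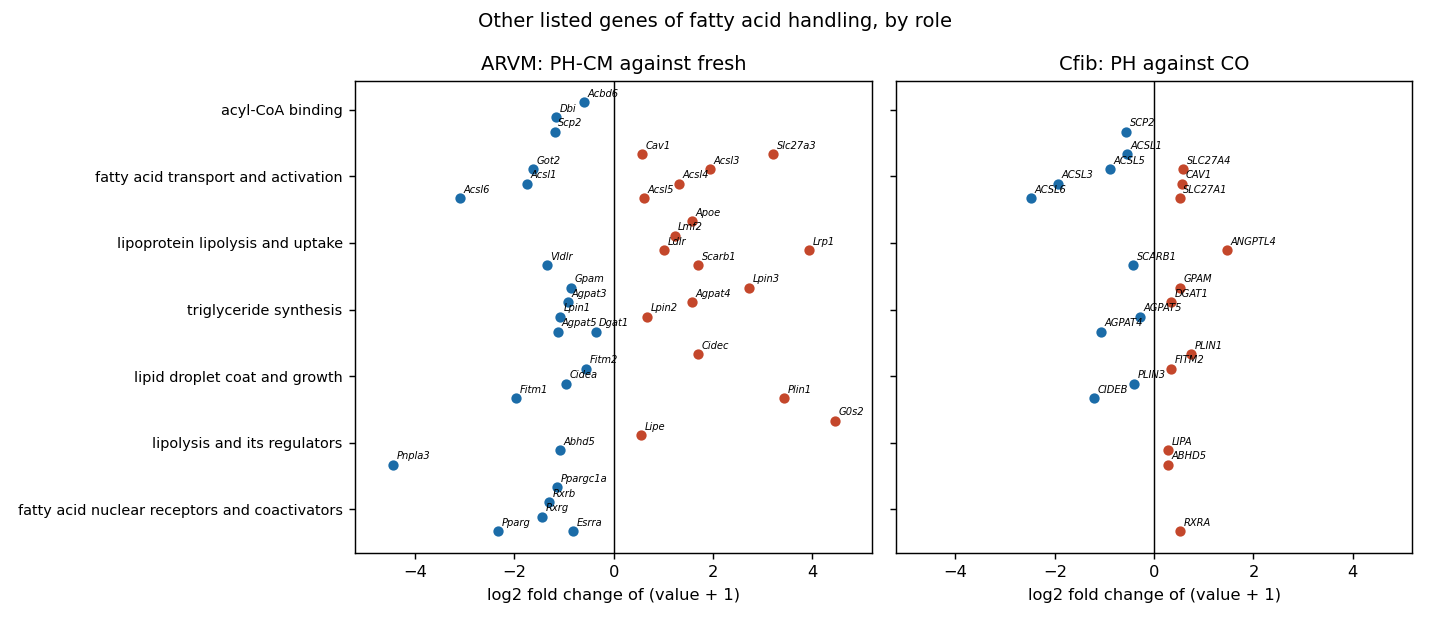
Log2 fold changes (value + 1) of the other listed genes of fatty acid handling, 1 point per gene, by role, in ARVM (left, PH-CM against freshly isolated) and Cfib (right, PH against CO). Red points are higher and blue points lower in the second group; the left panel holds 39 genes and the right 21, and G0s2 and Pnpla3 lie at the opposite ends of the left panel.

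In Cfib, 4 of the 6 listed members were higher in PH than in CO cells and 2 were lower. FABP3 had a 27.6-fold lower mean and PLIN2 a 1.47-fold lower one. CD36 was 5.85-fold higher, and FABP5, LPL and PNPLA2 were between 2.03-fold and 2.11-fold higher. All 6 passed the limma threshold, as did 97.5% of all listed genes, and no group overlapped in any of the 6, as in 100% of listed genes. Of all listed genes, 58.2% were called higher and 39.4% lower. The median log2 fold change of the 6 members was 1.005, beside 0.33 over all listed genes. With median-of-ratios scaling in place of the deposited scale, log2 fold changes moved by −0.27 in the median. This turned the calls from 1230 higher and 833 lower to 840 higher and 869 lower, while the 6 members kept their directions.

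**Figure D3:**
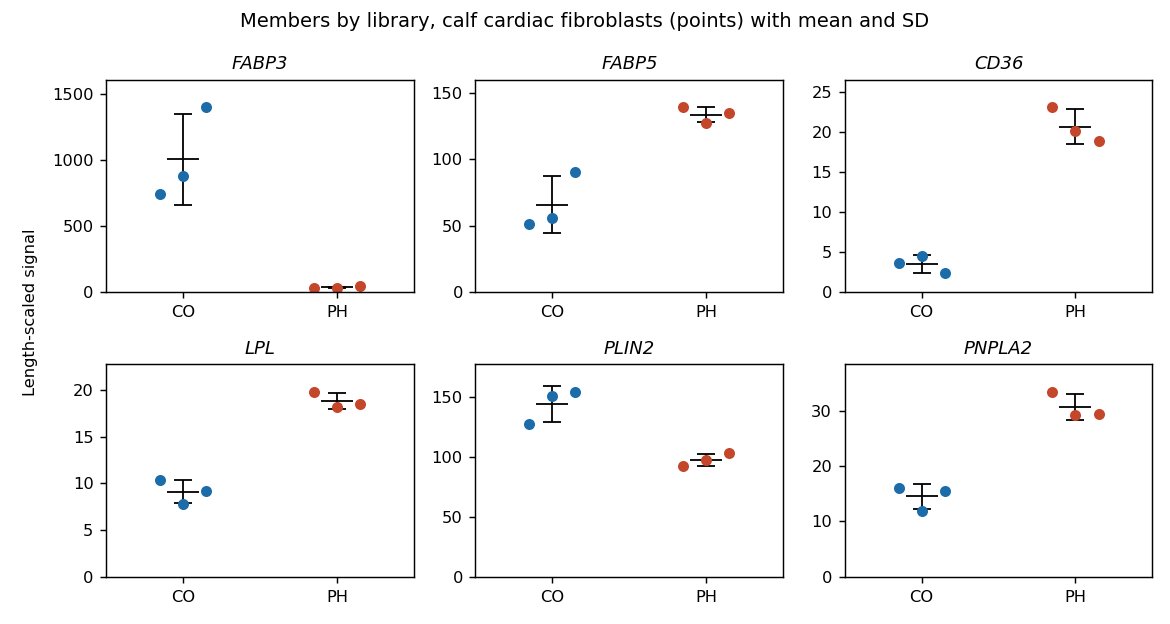
Length-scaled signal of the 6 listed members in CO (blue) and PH (red) Cfib, 1 point per library, with the mean and SD of 3 libraries. Each panel has its own axis from 0; FABP3 and PLIN2 are lower in the PH libraries and the other 4 genes are higher, with no overlap between groups.

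FABP3 had a length-scaled signal of 743, 878 and 1400 in CO Cfib 1, 2 and 3 and of 34.2, 31.6 and 43.6 in PH Cfib 1, 2 and 3. CO Cfib 3 was the highest library, and the lowest CO library still lay far above all PH libraries. The log2 fold change was −4.71 (SE 0.25), −4.44 without CO Cfib 3 and −4.99 after the median of ratios. FABP5 had a signal of 51.4, 56.1 and 90.6 in CO Cfib and of 139, 127 and 135 in PH Cfib. CO Cfib 3 was again the highest CO library and the PH libraries differed little. The log2 fold change was 1.05 (SE 0.20), 1.30 without CO Cfib 3 and 0.77 after the median of ratios.

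The ratio of FABP3 to FABP5 varied less than either gene among CO Cfib. It was 14.5, 15.6 and 15.5 in CO Cfib 1, 2 and 3, where the coefficients of variation of the genes were 34.5% and 32.4%. In PH Cfib 1, 2 and 3 it was 0.246, 0.248 and 0.324. On this length-scaled signal FABP3 thus stood above FABP5 in each CO library and below it in each PH library.

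**Figure D4:**
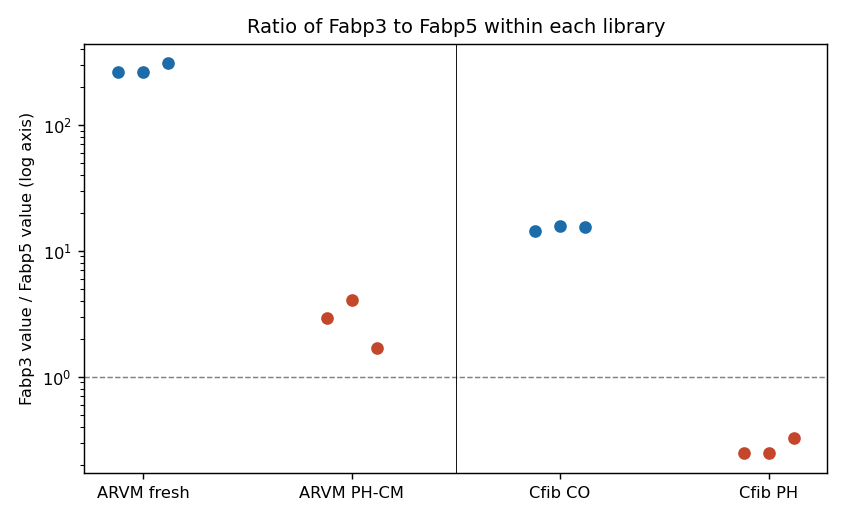
Ratio of the Fabp3 value to the Fabp5 value within each library (log axis), 1 point per library, for 3 libraries in each of the 4 groups. The ARVM ratios are of normalized counts and the Cfib ratios of length-scaled signal, so the ARVM and Cfib points are not on 1 scale; PH Cfib lie below 1 (dashed line) at 0.246 to 0.324.

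The uptake genes were both higher in PH Cfib. CD36 had a length-scaled signal of 3.68, 4.53 and 2.38 in CO Cfib 1, 2 and 3 and of 23.0, 20.0 and 18.9 in PH Cfib. All PH libraries stood well above the CO libraries, with a log2 fold change of 2.28 (SE 0.19) that ranked 69 among the rises of all listed genes. At these low CO values it depends on the pseudocount, and it was 1.18 with a pseudocount of 10. LPL had a signal of 10.4, 7.85 and 9.20 in CO Cfib and of 19.8, 18.1 and 18.5 in PH Cfib. This is a log2 fold change of 0.97 (SE 0.11), 0.71 after the median of ratios and 0.59 with a pseudocount of 10.

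PLIN2 had a length-scaled signal of 127, 151 and 154 in CO Cfib and of 92.5, 97.3 and 103 in PH Cfib. This was the smallest change of the members, with a log2 fold change of −0.55 (SE 0.09) that became −0.84 after the median of ratios. PNPLA2 had a signal of 16.1, 11.9 and 15.6 in CO Cfib and of 33.3, 29.2 and 29.3 in PH Cfib. All PH libraries were higher, with a log2 fold change of 1.04 (SE 0.12) and 0.76 after the median of ratios.

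The order of the levels differed between the groups. In CO Cfib the mean signal fell from FABP3 (1007) over PLIN2 (144), FABP5 (66.0), PNPLA2 (14.5) and LPL (9.14) to CD36 (3.53), and no neighbours in this order overlapped. In PH Cfib it fell from FABP5 (134) over PLIN2 (97.5), FABP3 (36.5), PNPLA2 (30.6) and CD36 (20.7) to LPL (18.8). There the ranges over libraries of FABP3 and PNPLA2 overlapped, as did those of CD36 and LPL. Within a library, FABP3 was above PNPLA2 and CD36 above LPL in 3 of 3 PH libraries.

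Of the 12 cardiomyocyte markers and of 7 erythroid markers, none was listed for Cfib. The calls of the other markers stand beside 97.5% of all listed genes called, 58.2% higher and 39.4% lower. Of 10 fibroblast markers, 2 were listed and called higher in PH Cfib, with COL1A2 at 2149 ± 346 (SD, n = 3) in CO and 6108 ± 165 in PH. Of 11 macrophage markers, 4 were listed, 3 higher and 1 lower, with summed signals from 7.76 to 11.03 in CO and from 9.47 to 10.1 in PH. CD14 and CD68 had the highest mean signals among them. CD14, the 1 lower marker, fell from 7.12 ± 1.47 (SD, n = 3) to 2.01 ± 0.160. CD68 rose from 2.24 ± 0.188 to 3.61 ± 0.498. C1QA and C1QB, both higher in PH Cfib, were listed at 0 in all 3 CO libraries. ESAM was the 1 listed endothelial marker of 10, from 6.65 ± 0.994 (SD, n = 3) to 2.62 ± 0.509. PLIN1 was the 1 listed adipocyte marker of 9, from 1.46 ± 0.616 to 3.03 ± 0.209. At such low signals the log2 fold change depends on the pseudocount, and it was −1.08 for ESAM and 0.74 for PLIN1, against −0.40 and 0.19 with a pseudocount of 10. The part of such cells in the members' values was not tested, and that a marker was not listed does not give its level.

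Of the same 90 other genes of fatty acid handling, 21 were listed for Cfib, 11 called higher and 10 lower by limma. This stands beside 97.5% of all listed genes called, 58.2% higher and 39.4% lower. Their median log2 fold change was 0.28. After the median of ratios 16 of the 21 passed, 6 higher and 10 lower. In that run 1709 of all 2115 listed genes passed, 840 higher and 869 lower. Of the 5 fatty acid handling genes lost, GPAM and ABHD5 are named after their values were seen. ABHD5 changed by 0.28 on the log2 scale, with an adjusted p of 0.0119 from limma, against 0.04 after the median of ratios (adjusted p = 0.642), and GPAM one of 0.51 against 0.28 (adjusted p = 0.0523).

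Among the genes of transport and activation, 7 were listed, 3 higher and 4 lower. Of these, 3 acyl-CoA synthetases had the largest changes and were all lower in PH Cfib. ACSL6 fell from 50.7 ± 13.03 (SD, n = 3) to 8.09 ± 1.37, ACSL3 from 207 ± 21.99 to 53.5 ± 6.20 and ACSL5 from 163 ± 25.5 to 87.1 ± 11.7 on the length-scaled signal. Acyl-CoA binding was represented by SCP2 alone, with a log2 fold change of −0.57. Of lipoprotein lipolysis and uptake, 2 genes were listed, 1 higher and 1 lower. ANGPTL4, an inhibitor of LPL, rose from 4.72 ± 1.32 (SD, n = 3) to 14.6 ± 1.60 (log2 fold change 1.47, SE 0.19, and 0.74 with a pseudocount of 10). SCARB1 had a log2 fold change of −0.42, and of −0.70 after the median of ratios.

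Triglyceride synthesis had 4 listed genes, 2 higher and 2 lower. AGPAT4, named after its value was seen, had the largest change of these, a log2 fold change of −1.07 (SE 0.11). Its adjusted p was 0.000201 from limma, with group means under 10. It was among the 10 lower genes that passed after the median of ratios. DGAT1 changed by 0.34 on the log2 scale, with an adjusted p of 0.00861 from limma, and did not pass after the median of ratios (0.06, adjusted p = 0.562). Of the droplet genes, 4 were listed, 2 higher and 2 lower. CIDEB had a log2 fold change of −1.21, which was −0.55 with a pseudocount of 10. PLIN3 had one of −0.41, which was −0.69 after the median of ratios, whereas FITM2, at 0.35, did not pass after the median of ratios (0.08, adjusted p = 0.278 from limma). The 2 listed lipolysis genes were LIPA and ABHD5. LIPA, the lysosomal lipase, had a log2 fold change of 0.28 that became 0.00450 after the median of ratios (adjusted p = 0.953 from limma). The 1 listed nuclear receptor was RXRA, which rose from 11.4 ± 1.17 (SD, n = 3) to 16.8 ± 0.467 (log2 fold change 0.53, 0.33 with a pseudocount of 10 and 0.26 after the median of ratios).

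Set side by side over the 6 genes listed in both tables, the directions were the same for 2 and opposite for 4. FABP3 was lower and FABP5 higher in both experiments. CD36, LPL and PNPLA2 were lower in PH-CM ARVM and higher in PH Cfib. PLIN2 was higher in PH-CM ARVM and lower in PH Cfib. The experiments differ in species, cell type, treatment and scale, and the difference between them was not tested.

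**Figure D5:**
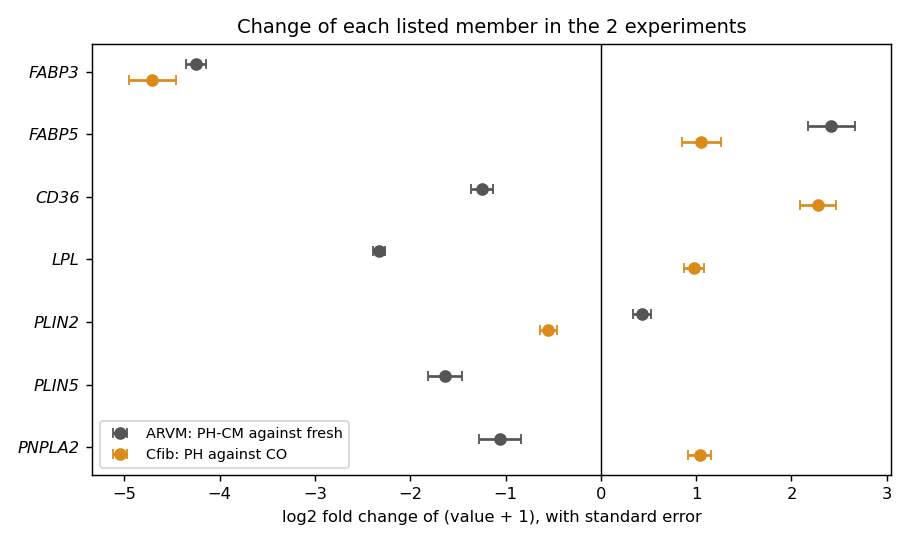
Log2 fold change (value + 1) with its standard error for each listed member, in ARVM (grey, PH-CM against freshly isolated) and Cfib (orange, PH against CO), from 3 libraries per group. FABP3 lies left of 0 and FABP5 right of 0 in both experiments, CD36, LPL, PLIN2 and PNPLA2 lie on opposite sides, and PLIN5 has a point for ARVM only.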

How the data were processed

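RNA was sequenced after ribosomal depletion in 12 libraries. The authors aligned rat reads to rn6 and bovine reads to bosTau8 with HISAT2 and StringTie. They normalized with DESeq2 (versions not given in the sources used here). They kept genes with a value over 1 in a condition and a p-value under 0.05. The p-value came from a t-test described as nonparametric with unequal variance, and the methods state an adjustment for multiple comparisons. Both tables the authors deposited give a signal for every gene and library. In ARVM it is the count divided by a size factor, and 100% of the values in each library were whole multiples of 1 step within 0.01 reads, which gave the reads. In 1 PH-CM library the smallest value was 2 reads. The deposited Cfib signal takes gene length into account (FPKM or TPM), although the methods describe normalized counts.

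The groups were fitted by limma 3.58.1 in R 4.3.3 on log2(value + 1), with moderated variances that follow the mean. p-values were adjusted by Benjamini-Hochberg across listed genes, which had been chosen for the same difference, at a threshold of 0.05. No exact permutation test was used, since 3 against 3 libraries are too few for it to pass. Recovered reads were also fitted with DESeq2 1.42.0 and, after TMM scaling, by the quasi-likelihood test of edgeR 4.0.16. Tables and plots used Python 3.11.15 with numpy 2.4.6, pandas 2.3.3 and matplotlib 3.10.9. The fits were also run on simulated data in which most genes did not change. The listed genes were selected for a change, so that run does not bear on their calls. The members and lists were chosen with earlier results of these data known. Named in the text were all members and up to 3 called genes of each list of fatty acid handling genes. These had the largest change among genes with a group mean of 10 or more. Up to 2 markers of a list were named by their highest mean value. The 3 genes with the profile most like the member with the largest change were also named. Markers at 0 or not listed are named as well, and other genes are marked as named after their values were seen.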

Additional observations from a re-analysis of the deposited data

How the results depend on the processing

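All 7 listed members in ARVM and all 6 in Cfib kept their direction and stayed past the threshold under each alternative run. These were pseudocounts of 0.1 and 10, a minimum mean (50 in ARVM, 5 in Cfib), variances without a trend, the median of ratios, leaving out 1 library at a time and, in ARVM, edgeR and DESeq2. The members had been selected for these same differences, so this outcome was largely set in advance. Most listed genes passed as well, such as 6668 of 7052 in ARVM with DESeq2 and 2060 of 2115 in Cfib with a pseudocount of 10. With each library left out, 6452 to 6695 of 7052 listed genes were called in ARVM and 1910 to 2052 of 2115 in Cfib. Of the other fatty acid handling genes, 38 to 39 of 39 were called in ARVM and 19 to 21 of 21 in Cfib. The CD36 change in Cfib ran from 1.18 (pseudocount 10) to 2.56 (pseudocount 0.1). The median of ratios, taken over selected genes, gave 1709 calls of 2115 in Cfib. AGPAT5 in Cfib, named after its value was seen, had a log2 fold change of -0.28 and lost its call without PH Cfib 1 (adjusted p = 0.0539 from limma) and without PH Cfib 2 (0.0543), as did ABHD5 without PH Cfib 1 (0.0532). With the replicate number as a block, 1983 Cfib genes were called, with 6 members and 21 other genes of fatty acid handling, so the block changed no count by over 1.5 times. Deviations of CO and PH libraries of equal number correlated at 0.258, 0.0312 and 0.259 across genes, and CO Cfib 2 correlated best with another number, so a shared number was not taken as a pairing. The ARVM groups share no replicate numbers. The Cfib depth is unknown, and the ARVM depth of genes not listed as well.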

Other observations

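The listed genes whose profile over the 6 ARVM libraries lay closest to that of Fabp3 were Tnni3, Slc2a4 and Cd74. Closeness was the root-mean-square difference of log2(value + 1) after each gene was centred on its own mean, and it was 0.066 for Tnni3, 0.124 for Slc2a4 and 0.179 for Cd74. Tnni3 (cardiac troponin I) had a log2 fold change of −4.35 and Slc2a4, the insulin-responsive glucose transporter, one of −4.40. Slc2a4 went from 4554 ± 193 (SD, n = 3) to 214 ± 15.3 normalized counts. Cd74, the invariant chain of MHC class II, went from 6691 ± 117 to 449 ± 65.0. The closest other member was Lpl, which ranked 212 among all listed genes at a difference of 0.967. In Cfib the closest to FABP3 were UBE2C (0.141), CCNB1 (0.325) and KIAA0101 (0.407), which act in cell division or DNA replication. UBE2C went from 98.2 ± 24.3 (SD, n = 3) to 2.84 ± 0.637 on the length-scaled signal, and like FABP3 it was highest in CO Cfib 3. The closest member there was PLIN2, ranked 503 at 2.09. FABP3 itself ranked 1 among the falls of all listed Cfib genes. All these genes were selected for the same differences between groups. With so few libraries, closeness mainly follows the size of that difference, and shared regulation was not tested.

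Erythroid genes were also listed for ARVM, 4 of 7, all called lower by limma, as were 43.7% of all listed genes. Hbb went from 1054 ± 57.6 (SD, n = 3) normalized counts to 0 in all 3 PH-CM libraries.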
